A study of Homo sapiens with 6 samples.

Results

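The heat shock chaperone genes described here were 10 genes chosen by name from the GENCODE annotation mapped to GRCh37 (hg19), out of 20176 protein-coding genes. HSPA6 is the strictly inducible member, HSPA1A, HSPA1B, DNAJB1 and HSP90AA1 are inducible members that are also made without stress, and HSPA5, HSPA8, HSPA9 and HSP90AB1 are constitutive. HSF1 encodes the transcriptional regulator of the inducible genes. For each gene, peak summits from an assay of open chromatin were taken from 10 kb upstream of the gene to its end, and a summit within 1 kb of any annotated start site was assigned to the promoter.

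Heat shock proteins of the HSP70 and HSP90 families bind unfolded proteins and use ATP to help them fold, and J-domain proteins such as DNAJB1 hand clients to HSP70. When unfolded proteins build up, HSF1 forms trimers and binds heat shock elements, which are inverted repeats of the letters GAA and TTC in the promoters of inducible chaperone genes. Tumor cells often lean on this system, and promoters of the inducible genes are known to be kept in an open, poised state before stress in many cell types.

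Chromatin accessibility was measured by ATAC-seq, in which a transposase inserts sequencing adapters into open DNA. The parental group was 3 libraries of MDA-MB-231, a human triple-negative breast cancer cell line, and the other group was 3 libraries of SAP30-KO1, made from that line by CRISPR/Cas9 knockout of SAP30, a subunit of the SIN3 corepressor complex. No heat or other stress was named for either group. The methods describe each knockout line as a mix of several selected knockout cells, without naming the SAP30-KO1 clones, and use unmodified parental cells as the comparison in this assay, so that the vector, drug selection and cloning cannot be told apart from loss of SAP30. The labels number replicates 1 to 3 in each group and do not state separate cultures, so p-values measure the spread between these libraries, which may be technical.

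The deposited lists held 30477 to 36694 summits in the parental and 29762 to 40650 in the SAP30-KO1 libraries, with no read counts, so depth is unknown. Each summit has a score, the −log10 of its q-value, and was ranked by score within its own list, from just above 0 for the weakest to 100 for the strongest. This percentile is called the rank below, a promoter took the rank of its strongest summit, and a promoter without a summit took 0. The SAP30 promoter had a peak in 6 of 6 libraries, with ranks of 49.5 to 89.5, and an open promoter does not measure whether the gene is disrupted. Of the MDA-MB-231 markers, the mesenchymal genes VIM, CD44 and CAV1 had a promoter peak in 6 libraries, ZEB1 and AXL in 3 and FOSL1 in 2, whereas the epithelial cadherin gene CDH1 had none, ESR1 and PGR had a peak in 1 library and GRHL2 and ESRP1 in 2. GATA3, a luminal gene listed among the promoters expected to be closed, had a peak in 5 libraries.

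To show which of these promoters carry heat shock elements, the 300 bases before the canonical start site were read from the GRCh37 genome and searched for GAANNTTC or TTCNNGAA, which are 2 units of the element and the same on either strand. Promoters of HSPA6, HSPA1A, HSPA1B, HSPA8, HSPA5 and HSP90AB1 are printed 5′ to 3′ along the gene, with the elements in capitals. They are shown because they are the strictly inducible gene, the near-identical inducible pair, and constitutive genes with and without the element.
HSPA6 promoter (chr1:161494030-161494329, plus strand): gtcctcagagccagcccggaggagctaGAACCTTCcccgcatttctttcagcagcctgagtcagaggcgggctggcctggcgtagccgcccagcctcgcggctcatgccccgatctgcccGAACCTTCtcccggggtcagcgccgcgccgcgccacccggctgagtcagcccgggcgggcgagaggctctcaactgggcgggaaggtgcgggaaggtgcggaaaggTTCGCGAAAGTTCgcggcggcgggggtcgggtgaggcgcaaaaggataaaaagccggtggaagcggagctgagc
HSPA1A promoter (chr6:31783020-31783319, plus strand): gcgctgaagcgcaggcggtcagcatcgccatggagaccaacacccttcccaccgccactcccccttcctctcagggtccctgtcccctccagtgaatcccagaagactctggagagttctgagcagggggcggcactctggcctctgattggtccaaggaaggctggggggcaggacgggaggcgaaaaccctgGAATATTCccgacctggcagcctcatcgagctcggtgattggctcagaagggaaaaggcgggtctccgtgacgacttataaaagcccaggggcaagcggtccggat
HSPA1B promoter (chr6:31795215-31795514, plus strand): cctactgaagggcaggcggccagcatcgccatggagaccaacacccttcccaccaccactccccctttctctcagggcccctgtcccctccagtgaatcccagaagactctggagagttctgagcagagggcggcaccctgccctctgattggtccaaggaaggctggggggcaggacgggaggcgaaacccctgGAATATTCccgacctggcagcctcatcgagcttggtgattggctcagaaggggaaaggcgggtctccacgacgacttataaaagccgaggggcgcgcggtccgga
HSPA8 promoter (chr11:122932845-122933144, minus strand): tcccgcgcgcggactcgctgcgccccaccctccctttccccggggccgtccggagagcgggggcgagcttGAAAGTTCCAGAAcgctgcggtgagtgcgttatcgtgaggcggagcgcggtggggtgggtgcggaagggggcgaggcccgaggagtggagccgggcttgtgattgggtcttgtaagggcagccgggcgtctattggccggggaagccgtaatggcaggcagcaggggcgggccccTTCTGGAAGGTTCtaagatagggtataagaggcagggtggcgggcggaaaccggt
HSPA5 promoter (chr9:128003623-128003922, minus strand): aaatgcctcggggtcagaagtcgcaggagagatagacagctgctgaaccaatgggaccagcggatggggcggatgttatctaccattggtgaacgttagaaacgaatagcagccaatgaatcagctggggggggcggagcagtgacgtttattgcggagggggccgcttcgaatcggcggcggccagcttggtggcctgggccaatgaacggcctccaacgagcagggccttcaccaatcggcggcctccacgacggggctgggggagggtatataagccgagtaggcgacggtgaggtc
HSP90AB1 promoter (chr6:44214538-44214837, plus strand): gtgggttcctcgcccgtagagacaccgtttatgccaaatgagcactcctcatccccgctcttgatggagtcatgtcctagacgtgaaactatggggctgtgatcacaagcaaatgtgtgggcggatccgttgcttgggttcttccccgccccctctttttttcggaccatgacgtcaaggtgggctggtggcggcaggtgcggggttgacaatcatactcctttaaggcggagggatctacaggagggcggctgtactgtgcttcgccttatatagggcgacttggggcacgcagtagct

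Over 19819 promoters of protein-coding genes, 11.7% held at least 1 such element in this window, and 6 of the 10 members did. HSPA6 had 4 elements, which began 273, 180, 74 and 69 bases before the start, and the last pair overlapped into a run of 3 units. HSPA8, although constitutive, also had 4, at 230, 225, 55 and 50 bases. HSP90AA1 had 3 and DNAJB1 had 2, whereas HSPA1A and HSPA1B had 1 each, 106 and 105 bases before the start. The printed HSPA5 and HSP90AB1 windows hold no capitals, and HSPA9 and HSF1 had no match either. A run of 3 units, GAANNTTCNNGAA or its reverse TTCNNGAANNTTC, occurred in 0.414% of promoters and in 3 members, HSPA6, HSPA8 and HSP90AA1. A match here is a match of letters, not a measured binding site.

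Other short promoter motifs were searched on both strands in the same windows. The GC box GGGCGG was present in 10 of 10 members and in 60.9% of all promoters, and CCAAT was present in 6 members and in 37.8%. The letters TATAAA were found in HSPA1A and HSPA1B alone among the members, and in 11.0% of all promoters. HSPA1A and HSPA1B were 93.3% identical over the 300 bases, with an edit distance of 20.

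This sequence likeness bears on how peaks can be placed, since the reads were 75 bases long. Within 250 bp of the start site, 100% of 75-base words were unique in the genome for DNAJB1, HSP90AA1, HSPA5, HSPA8, HSPA9, HSP90AB1 and HSF1. For HSPA1A and HSPA1B the shares were 98.8% and 98.6%, and the words of one promoter differed from the other copy by a median of 3 bases. For HSPA6 it was 61.3%, because the stretch from 100 to 350 bp downstream of the start holds no unique word. The sequence around the HSPA6 start is shared in part with HSPA7, a related gene on the same chromosome. The 300 bases upstream of HSPA6 were unique throughout. Further upstream, the unique share was 50% from 350 to 300 bp, 100% from 400 to 350 bp and 56% from 450 to 400 bp. Most HSPA6 summits lay 362 to 404 bp upstream, beyond the 300 bases. How the authors' alignment placed reads with several equal matches is not given in the sources used here, so levels of HSPA6, HSPA1A and HSPA1B carry this uncertainty. Words were counted on the primary assembly alone. Whether the authors' hg19 also held alternate chromosome 6 haplotypes, in which HSPA1A and HSPA1B words would occur again, is not given in the sources used here.

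Of the 10 promoters, 6 had a peak in every library, compared with 34.5% of protein-coding genes. These were HSPA6, HSPA1B, DNAJB1, HSP90AA1, HSPA5 and HSPA8. HSPA9 and HSP90AB1 had a peak in 5 libraries, HSPA1A in 4 and HSF1 in 3. The genes together held 44 summits in the parental and 44 in the SAP30-KO1 libraries, of which 68 lay at promoters, 13 upstream and 7 in gene bodies.

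**Figure D1:**
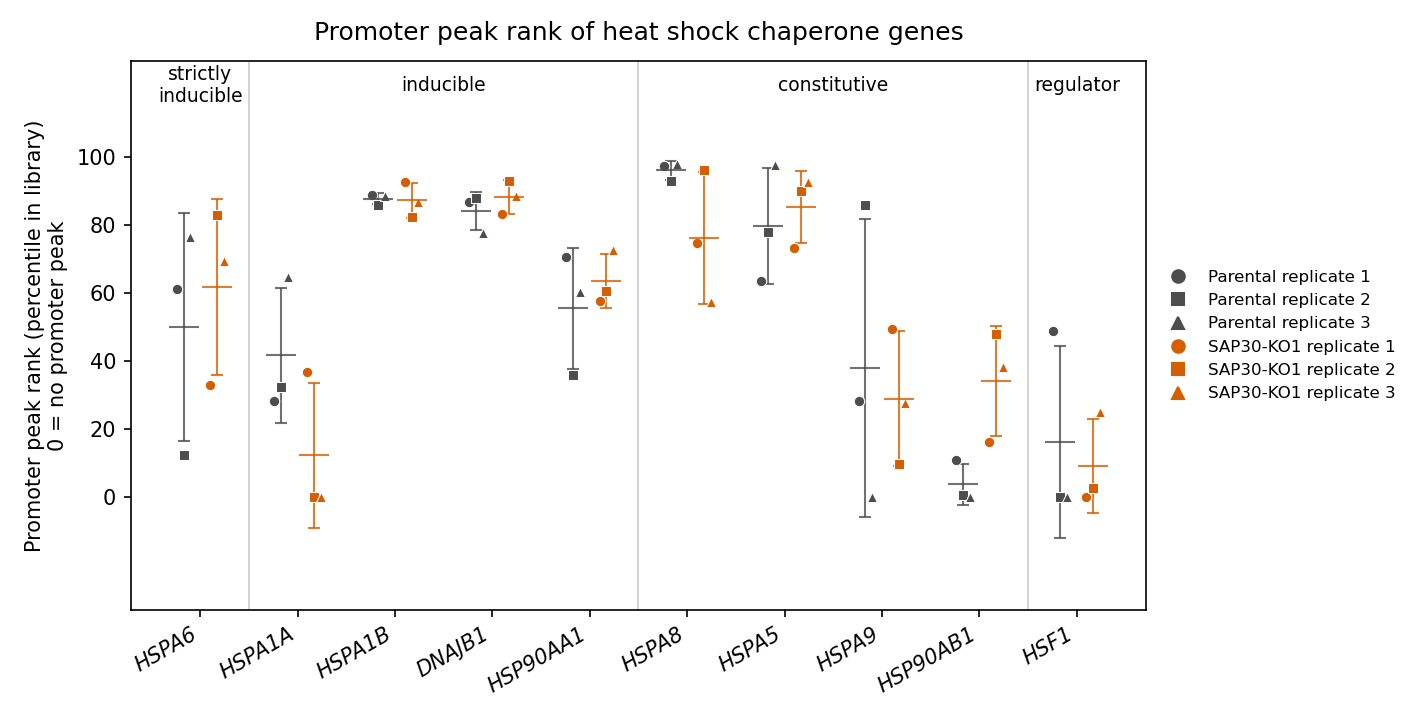
Promoter peak rank (percentile of the summit score within its library, 0 where no promoter peak was called) of the 10 genes. Points are libraries (dark, Parental; orange, SAP30-KO1; symbol shape, replicate number), horizontal lines are group means and bars are 1 SD over 3 libraries. HSPA1B and DNAJB1 lie between 77.7 and 92.9 in all 6 libraries, HSPA6 spans 12.3 to 82.9, and HSP90AB1 is the gene whose groups do not overlap.

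Next, the members were compared between parental and SAP30-KO1 cells, beginning with HSPA6. The study followed HSPA6 as a gene repressed by SAP30 and, from browser views of the ATAC-seq signal, reported greater accessibility in SAP30-KO1 cells. The comparison here asks whether its called promoter peaks also ranked higher in the knockout line, which is a different measure. HSPA6 lies on chromosome 1 from 161494330 to 161496684 on the plus strand, and its summits lay upstream of the start, mostly in the promoter sequence beyond the printed window. The parental libraries had ranks of 61.0, 12.3 and 76.3, and the SAP30-KO1 libraries had 32.9, 82.9 and 69.5 (replicates 1 to 3). The ranges overlapped widely, with the lowest value in Parental replicate 2 and the highest in SAP30-KO1 replicate 2.

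Behind these ranks, the −log10 q-values were 6.76, 3.52 and 8.68 in parental and 4.83, 12.2 and 8.36 in SAP30-KO1 cells. The mean difference of 11.9 was smaller than the SD of either group (exact permutation test, two-sided, n = 3, p = 0.6), and it turned to -6.91 without Parental replicate 2. The summit lay 362 to 399 bp upstream of the start in the 3 parental libraries and at 404 bp in SAP30-KO1 replicate 2, whereas it lay at 13 and 107 bp in SAP30-KO1 replicates 1 and 3. Those last summits are the ones inside the printed sequence. The start of FCGR2A, the nearest other protein-coding gene, was at least 6161 bp away, so the peak was not shared with another protein-coding promoter. Starts of noncoding genes were not searched.

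**Figure D2:**
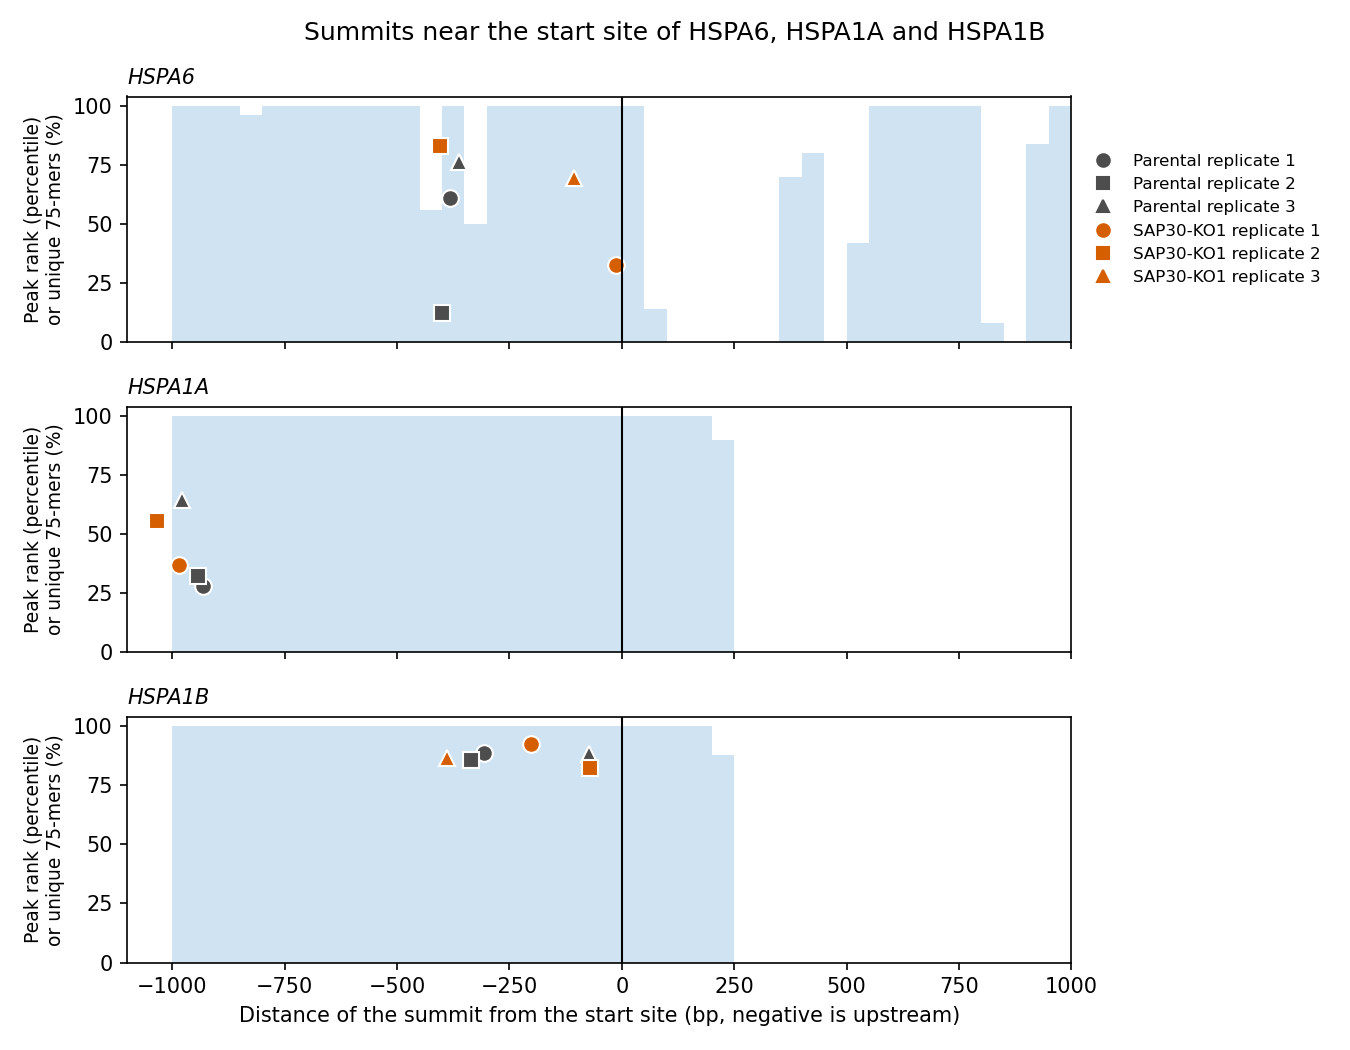
Summits within about 1 kb of the start site of HSPA6, HSPA1A and HSPA1B, by distance (bp, negative is upstream) and rank (percentile), 1 point per library. Shading gives the share of 75-base words in bins of 50 bp that are unique in the genome, over the 1 kb on each side. HSPA6 summits lie 13 to 404 bp and HSPA1B summits 70 to 389 bp upstream, whereas HSPA1A summits lie 931 to 1033 bp upstream.

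The inducible HSP70 pair stood far apart in rank. HSPA1B (chromosome 6, 31795515 to 31798031, plus strand) had ranks of 88.8, 85.9 and 88.4 in parental and 92.5, 82.4 and 86.7 in SAP30-KO1 cells. Its summits lay 70 to 389 bp upstream of the start, inside the printed promoter in Parental replicate 3 and SAP30-KO1 replicates 1 and 2, and just upstream of it in the other libraries. The group difference was -0.467 (exact permutation test, two-sided, n = 3, p = 1) and was 1.93 without SAP30-KO1 replicate 2 and 0.0992 without Parental replicate 1.

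HSPA1A (chromosome 6, 31783320 to 31785723, plus strand) had ranks of 28.2, 32.3 and 64.5 in parental and 36.9, 0 and 0 in SAP30-KO1 cells. Its difference of -29.4 did not separate the groups (exact permutation test, two-sided, n = 3, p = 0.3). The zeros depend on the window: SAP30-KO1 replicate 2 had a summit of rank 55.8 at 1033 bp upstream, just outside 1 kb, and with a window of 2.5 kb the difference was -10.8 (exact permutation test, two-sided, p = 0.7). These summits, 931 to 1033 bp from HSPA1A, were nearer to HSPA1L, a divergent HSP70 gene whose start lay 671 to 773 bp away. Within 500 bp of the HSPA1A start no library had a summit, and the printed promoter thus held none.

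HSPA1B ranked above HSPA1A in 6 of 6 libraries, by 60.5 ± 22.7 on average (SD, n = 6; exact sign-flip permutation test, two-sided, p = 0.03125, the smallest the test can give, and 0.0639 after adjustment over the pairs of members described below). The 2 promoters have 1 element each at nearly the same place, and whether the elements bear on the ranks was not tested. Where HSPA1A had a peak, its rank came from a summit nearer to HSPA1L, outside the window searched for elements. Another summit 8.7 kb upstream of HSPA1A, in 4 libraries, lay 3 to 56 bp from the start of LSM2, which encodes an RNA-binding protein.

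DNAJB1 encodes the J-domain partner that stimulates HSP70. It lies on chromosome 19 from 14625581 to 14671203 on the minus strand and has 23 annotated start sites, so its promoter window is wider than that of HSPA6, with 1. Its promoter ranks were 86.8, 87.8 and 77.7 in parental and 83.1, 92.9 and 88.4 in SAP30-KO1 cells, high in every library, with a difference of 4.05 (exact permutation test, two-sided, n = 3, p = 0.4). This strong peak lay at -11262 to -10869 bp relative to the canonical start, at alternative starts, and 2 to 313 bp from the start of TECR, an enzyme of fatty acid elongation. The DNAJB1 peak is therefore shared with another promoter.

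At the canonical DNAJB1 start, a peak was called in Parental replicate 1 (rank 34.7) and SAP30-KO1 replicates 2 and 3 (50.7 and 41.4), and in no other library. The difference there was 19.1 (exact permutation test, two-sided, n = 3, p = 0.4). A further summit, at -1873 to -1679 bp, was found in 6 of 6 libraries with ranks of 43.4 to 58.6 and a difference of 1.22 (exact permutation test, two-sided, n = 3, p = 0.7). It was steadier between libraries than the peak at the canonical start.

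HSP90AA1, the inducible cytosolic HSP90 (chromosome 14, 102547079 to 102606036, minus strand), also had a pair of open promoters. At the canonical start, beside its elements, ranks were 70.5, 35.9 and 31.3 in parental and 56.5, 39.5 and 72.6 in SAP30-KO1 cells, a difference of 10.3 (exact permutation test, two-sided, n = 3, p = 0.5). At alternative starts, summits lay at -53322 to -52420 bp and 24 to 385 bp from a start of WDR20, and their ranks were 15.0, 6.58 and 60.2 in parental and 57.6, 60.5 and 54.7 in SAP30-KO1 cells. Parental replicates 1 and 2 were low there and Parental replicate 3 was as high as the SAP30-KO1 libraries, so the difference of 30.4 did not separate the groups (exact permutation test, two-sided, n = 3, p = 0.3). With the stronger of the 2 peaks taken in each library, the gene differed by 8.03 (exact permutation test, two-sided, n = 3, p = 0.6) and by -1.76 without Parental replicate 2. With the mean over all promoter summits in place of the strongest, it differed by 24.4 (exact permutation test, two-sided, n = 3, p = 0.2).

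Among the constitutive genes, HSPA5, which encodes the HSP70 of the endoplasmic reticulum (BiP), lies on chromosome 9 from 127997132 to 128003661 on the minus strand. Its ranks were 63.4, 78.0 and 97.6 in parental and 73.1, 89.9 and 92.6 in SAP30-KO1 cells, at summits 23 to 189 bp from a start site. The groups overlapped, with a difference of 5.55 (exact permutation test, two-sided, n = 3, p = 0.7) that was -2.58 without Parental replicate 1.

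HSPA8 encodes the constitutive cytosolic HSP70 (HSC70) and lies on the long arm of chromosome 11 from 122928197 to 122933938 on the minus strand. Its ranks were 97.1, 92.8 and 97.9 in parental and 74.8, 96.2 and 57.4 in SAP30-KO1 cells. The parental promoter was thus near the top of each list, SAP30-KO1 replicates 1 and 3 were below the parental range, and SAP30-KO1 replicate 2 was within it. The difference of -19.9 (exact permutation test, two-sided, n = 3, p = 0.2) was -13.4 when summits were ranked within their own chromosome arm. Without SAP30-KO1 replicate 2 the ranges no longer overlapped and the difference was -29.9, whereas without SAP30-KO1 replicate 3 it was -10.5.

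HSPA9 encodes mortalin, the mitochondrial HSP70, and lies on chromosome 5 from 137889445 to 137911364 on the minus strand. Its ranks were 28.2, 85.9 and 0 in parental and 49.4, 9.80 and 27.8 in SAP30-KO1 cells. No other member spread as far within the parental group, and the difference of -9.04 (exact permutation test, two-sided, n = 3, p = 0.8) was 14.9 without Parental replicate 2 and 0.561 without SAP30-KO1 replicate 2.

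HSP90AB1, the constitutive cytosolic HSP90 (chromosome 6, 44213903 to 44221625, plus strand), was the member whose groups did not overlap. Its promoter ranks were 10.8, 0.559 and 0 in parental and 16.3, 47.9 and 38.3 in SAP30-KO1 cells. The parental mean was 3.79 ± 6.09 and the SAP30-KO1 mean 34.2 ± 16.2 (SD over 3 libraries each). The difference of 30.4 reached the smallest p that 3 against 3 libraries allow (exact permutation test, two-sided, p = 0.1). It stayed between 23.5 and 39.3 when each library was left out. The peaks were weak, with −log10 q-values of 3.04 and 2.12 in the parental libraries that had a peak and of 3.81, 6.31 and 5.19 in SAP30-KO1 cells, and with a q-value limit of 0.0001 the groups overlapped and the difference was 19.8 (exact permutation test, two-sided, n = 3, p = 0.4). The summits were scattered, from -976 to -105 bp relative to the canonical start, and the strongest summits of Parental replicates 1 and 2 and SAP30-KO1 replicate 3 fell upstream of the printed sequence.

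About 9 kb further upstream, HSP90AB1 had a summit in 6 of 6 libraries, in both groups far stronger than at its promoter. Ranks there were 93.8, 85.2 and 82.9 in parental and 51.6, 86.6 and 76.0 in SAP30-KO1 cells, a difference of -15.9 (exact permutation test, two-sided, n = 3, p = 0.3). The nearest start of another protein-coding gene, the nucleoside transporter gene SLC29A1, was 5279 to 5822 bp away. The upstream summit and the promoter differed in opposite directions between the groups, and the upstream ranges overlapped.

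HSF1, the regulator (chromosome 8, 145515273 to 145538383, plus strand), had the lowest mean promoter rank of the 10 genes. Its ranks were 48.9, 0 and 0 in parental and 0, 2.77 and 25.1 in SAP30-KO1 cells, a difference of -7.01 (exact permutation test, two-sided, n = 3, p = 1) that was 9.30 without Parental replicate 1. Its summits lay 31 to 359 bp from the start of BOP1, a ribosome biogenesis gene, so this weak peak also has a neighbour.

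Across the 10 genes, 5 were higher and 5 lower in SAP30-KO1 cells, and the median difference was 1.79, beside 0.673 over the 12572 promoters with a peak in any library. Groups that did not overlap were found for 1 member higher in SAP30-KO1 cells, HSP90AB1, and for 0 members lower. Over all those promoters the shares were 6.01% higher and 4.57% lower, so 1 in 10 genes is near the background. Limma fitted over the 6966 promoters with a peak in all 6 libraries called 0 of them (0%) at an adjusted p under 0.05, with 484 at an unadjusted p under 0.05. HSPA8 had the lowest adjusted p of the 6 members tested, 0.616 (limma, Benjamini-Hochberg over 6966 promoters), with a difference of -19.9 and an SE of 7.14, and HSPA6 had 0.915 with an SE of 17.8.

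The order of the levels was then described over the 6 libraries. HSPA1B had the highest mean rank (87.5 ± 3.38, SD, n = 6), followed by DNAJB1 (86.1 ± 5.18), HSPA8 (86.0 ± 16.5) and HSPA5 (82.4 ± 13.1). The DNAJB1 value is that of the peak shared with TECR, and at the canonical DNAJB1 start a peak was called in 3 libraries alone. HSP90AA1 (59.6 ± 13.0) and HSPA6 (55.8 ± 27.5) were next. HSPA9 (33.5 ± 30.8), HSPA1A (27.0 ± 24.5), HSP90AB1 (19.0 ± 19.9) and HSF1 (12.8 ± 20.2) were the lowest.

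The order did not follow the split into inducible and constitutive genes. HSPA1B was above 87.7% of all promoters with a peak and HSPA6 above 58.0%, whereas the constitutive HSP90AB1 was above 26.4% and HSF1 above 19.8%. The median member had a mean rank of 57.7, beside 46.3 over all such promoters. Of the 45 pairs of members, 22 had 1 gene higher in all 6 libraries. These reached the smallest p of the exact sign-flip permutation test, 0.03125, which is 0.0639 after Benjamini-Hochberg adjustment over the pairs. The share of such pairs among other promoters was not counted. Ranks of 0 for uncalled peaks and the DNAJB1 peak shared with TECR enter several of them. No pair therefore passed an adjusted threshold of 0.05 in a design of 6 libraries. No neighbours in this order passed the test, and the lowest p was for HSPA5 above HSP90AA1 by 22.9 ± 17.8 in 5 of 6 libraries (exact sign-flip permutation test, two-sided, p = 0.0625, adjusted p = 0.100).

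HSPA6 was then set against the constitutive genes within each library. It ranked below HSPA5 in 6 of 6 libraries, by -26.6 ± 23.4 (SD, n = 6; exact sign-flip permutation test, two-sided, p = 0.03125, adjusted p = 0.0639). It ranked below HSPA8 in 5 of 6, by -30.2 ± 31.2 (exact sign-flip permutation test, p = 0.0625, adjusted p = 0.100), the exception being SAP30-KO1 replicate 3, where HSPA8 was at its lowest.

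On average HSPA6 stood higher than the other constitutive genes. It was above HSPA9 in 4 of 6 libraries, by 22.3 ± 57.8 (exact sign-flip permutation test, n = 6, p = 0.375, adjusted p = 0.496), and above HSP90AB1 in 6 of 6, by 36.8 ± 23.7 (exact sign-flip permutation test, p = 0.03125, adjusted p = 0.0639). Relative to the mean of the 3 constitutive HSP70 genes, HSPA6 stood at -1.89, -73.3 and 11.2 in parental and at -32.8, 17.6 and 10.2 in SAP30-KO1 cells. The group means were -21.3 ± 45.5 and -1.66 ± 27.3 (SD, n = 3), a gap of 19.7 that was -6.31 without Parental replicate 2, the library in which HSPA6 was at 12.3, and 10.1 with HSP90AB1 added to the reference genes. For single genes, the change of the gap between groups had exact permutation p values of 0.9 for HSPA5, 0.3 for HSPA8, 0.7 for HSPA9 and 0.5 for HSP90AB1.

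**Figure D3:**
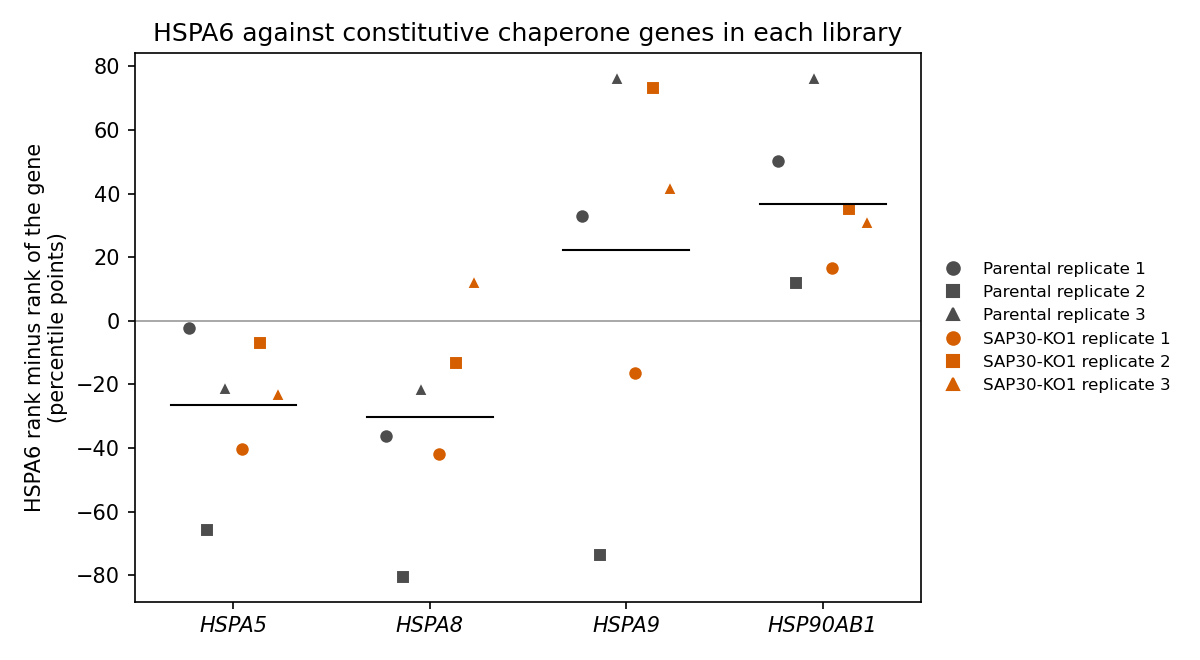
Rank of HSPA6 minus the rank of each constitutive gene in the same library (percentile points). Points are libraries (dark, Parental; orange, SAP30-KO1; symbol shape, replicate number) and horizontal lines are means over 6 libraries. All 6 points lie below 0 for HSPA5 and above 0 for HSP90AB1, and HSPA9 spans both sides.

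The promoters whose ranks ran most like HSPA6 over the 6 libraries were MAP3K8, a kinase of the NF-kappaB and ERK pathways (Pearson r = 0.997), REL, an NF-kappaB subunit (r = 0.989), and ABI1, an actin regulator (r = 0.989). MAP3K8 had ranks of 45.8, 6.46 and 56.6 in parental and 20.5, 60.3 and 53.5 in SAP30-KO1 cells, so it was also lowest in Parental replicate 2. REL and ABI1 were lowest in the same library, at 76.6 and 73.0. All of these promoters and HSPA6 ranked lowest in the shortest lists, Parental replicate 2 (30477 summits) and SAP30-KO1 replicate 1 (29762). Their ranks were highest in the longest list, SAP30-KO1 replicate 2 (40650 summits). Whether list length bears on these ranks was not tested. Of the other 6965 promoters with a peak in all libraries, 172 had an r above 0.9, and all points share the same 6 libraries, so these are descriptions without a test.

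Last, 64 further genes of the chaperone network were counted. A promoter peak was found for 49 of them in any library and for 34 in all 6 (53.1%, beside 34.5% of all genes). All 10 chaperonin genes had one in all 6 libraries, whereas 7 of 9 small heat shock protein genes had none in any library. As a background, such a peak was called for 12572 of the 20176 annotated genes in any library, and the rest lacked it. HSPA7, the gene related to HSPA6 on the same chromosome, also had none. Of the 75-base words within 250 bp of the HSPA7 start 38.5% were unique, and what this does to peak calls there was not tested. HSPA1L had ranks of 28.2, 32.3 and 64.5 in parental and 36.9, 55.8 and 0 in SAP30-KO1 cells, from the summits given above for HSPA1A. HSF2, the other main heat shock factor and named here after its values were seen, had ranks of 98.3 to 99.8 in all 6 libraries, far above HSF1.

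Between the groups, 28 of these 49 genes were higher and 21 lower in SAP30-KO1 cells, with a median difference of 0.610. The groups did not overlap for 5 that were higher (10.2%, beside 6.01% of all promoters) and for 2 that were lower (4.08%, beside 4.57%). Higher were the J-domain gene DNAJB4 (difference 11.1), the chaperonin subunits CCT4 (35.0) and CCT7 (5.74), the nucleotide exchange factor BAG5 (27.0) and the HSP90 co-chaperone FKBP5 (32.7). Lower were DNAJB6 (-47.0), a J-domain suppressor of protein aggregation, and the chaperonin subunit CCT5 (-29.4). Subunits of the same chaperonin ring thus lay on both sides, and limma called none of the network genes it tested. DNAJB6 and BAG5 were not among those tested, and ranks of 0 for uncalled peaks enter their differences. DNAJB6 had ranks of 0, 13.4 and 0 in SAP30-KO1 cells, and BAG5 had 0, 4.54 and 0 in parental cells.

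**Figure D4:**
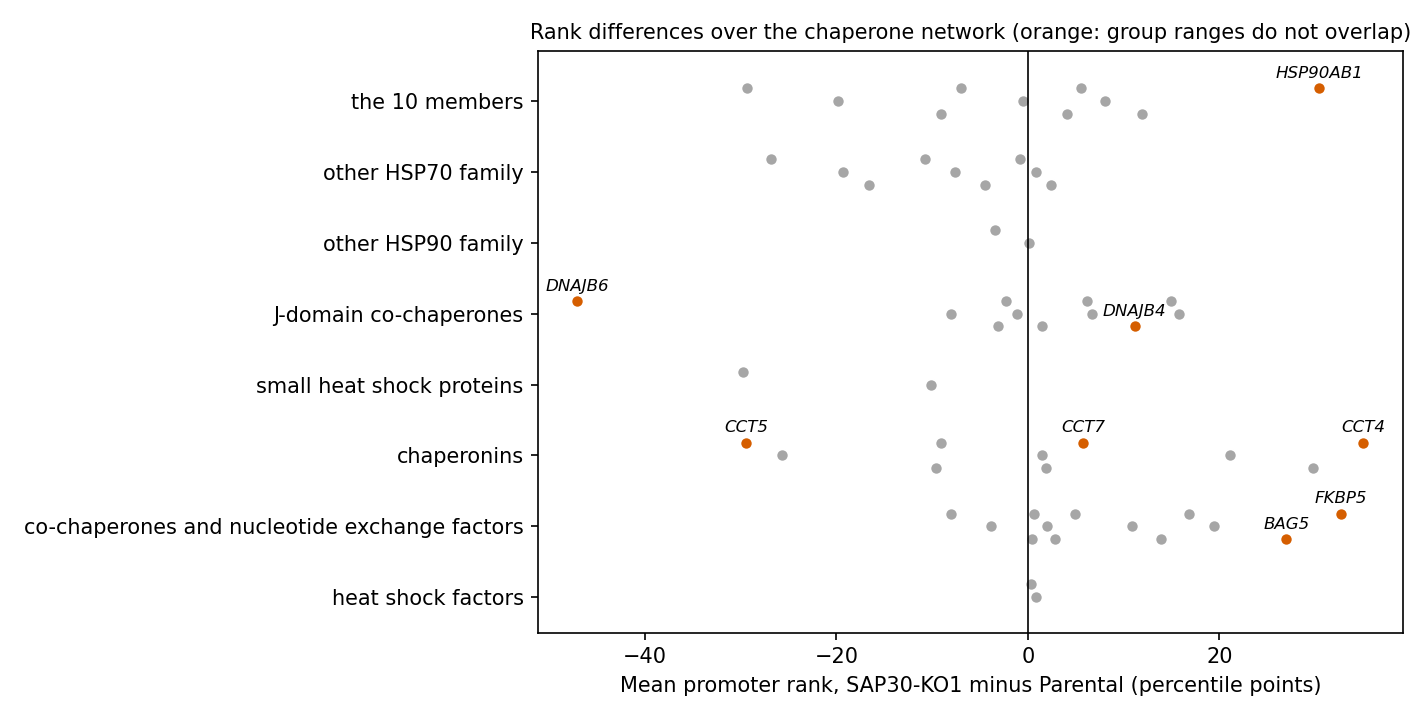
Difference of the mean promoter rank, SAP30-KO1 minus Parental (percentile points, 3 libraries each), for each gene with a promoter peak in any library, by list. Each point is 1 gene, and orange points with names are genes whose group ranges do not overlap, 1 of the 10 members and 7 of the network. Points lie on both sides of 0 among the members, the chaperonins and the J-domain genes.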

How the data were processed

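ATAC-seq of 3 Parental and 3 SAP30-KO1 MDA-MB-231 libraries was analysed, grouped and numbered as the sample titles give them. According to the methods and the submitters' processing notes, single-end reads of 75 bases were trimmed with Trim Galore 0.4.5, aligned to hg19 with Bowtie2 2.3.3.1, freed of duplicates with Picard and used to call peaks with MACS2 2.1.0, with 0.05 as the limit on the q-value. The deposited files hold, for each library separately, summit positions with the −log10 q-value that the authors' peak caller gave. They hold no reads or counts. Handling of reads with several matches, shifting for the transposase and removal of blacklisted regions are not given in the sources used here.

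As each list was called on its own and its scores cannot be set beside those of another list, each summit was ranked as a percentile within its list. Start sites came from GENCODE release 44 mapped to GRCh37, and promoter sequences and unique 75-base words from the GRCh37 primary assembly. Coordinates count from 1. Summits of several libraries at a gene were linked into a site when within 1 kb, a choice made after the data were seen. Group means were compared by exact permutation over all 20 assignments, two-sided, for which the smallest p is 0.1, and genes within libraries by an exact sign-flip permutation test over 64 assignments. Promoters with a peak in all 6 libraries were fitted with limma 3.58.1 in R 4.3.3, with robust and trended moderation, and adjusted by Benjamini-Hochberg. Alternatives were other promoter windows and start sites, stricter q-values, equal list lengths, chromosomes 1 to 22 and X, ranks within arms, mean ranks, the fit with a replicate block, and the omission of each library in turn.

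The named genes are the 10 members, the network genes whose ranges do not overlap between the groups, HSPA7, HSPA1L, and the 3 promoters most correlated with HSPA6. SAP30 and a list of MDA-MB-231 markers were named to check the samples, neighbouring genes to place a summit, and HSF2 after its values were seen. The members, lists and tests were chosen with earlier results of these data known.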

Additional observations from a re-analysis of the deposited data

How the results depend on the processing

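The member differences kept their direction under the alternatives with all 6 libraries, except for 3 values. The DNAJB1 difference was -2.16 with the mean over the summits of a promoter, and the HSPA1B difference was 0.402 under a q-value limit of 0.0001 and 1.65 when ranked within the chromosome arm. With HSP90AB1 added to the constitutive genes, HSPA6 stood 0.583 above their mean over the libraries, from -11.5, and the change of this gap between groups was 10.1, from 19.7. The HSP90AA1 difference was 24.4 with the mean over summits, from 8.03. Under the q-value limit of 0.0001, 0 members had groups that did not overlap, beside 7.09% of all promoters higher and 3.57% lower. With that limit the HSP90AB1 difference fell from 30.4 to 19.8 and the HSPA1A difference was -16.0, from -29.4. Within 500 bp of the start HSPA1A had no summit, so its difference was 0, with no direction. With the canonical starts alone, 5 members had a peak in every library, beside 6080 of the 20176 protein-coding genes.

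Leaving out each library in turn gave ranges of -6.91 to 26.3 for HSPA6, -41.7 to -17.9 for HSPA1A, -3.13 to 1.93 for HSPA1B, 0.871 to 6.58 for DNAJB1 and -1.76 to 15.5 for HSP90AA1. The ranges were -2.58 to 14.5 for HSPA5, -29.9 to -10.5 for HSPA8, -28.0 to 14.9 for HSPA9, 23.5 to 39.3 for HSP90AB1 and -15.2 to 9.30 for HSF1. HSPA6 minus the mean of the constitutive HSP70 genes ranged from -17.3 to 0.859 over the libraries, and its change between groups from -6.31 to 35.9. Members with groups that did not overlap numbered 1 to 3. HSPA8 joined HSP90AB1 without Parental replicate 2 or without SAP30-KO1 replicate 2, and DNAJB1 and HSPA1A joined it without SAP30-KO1 replicate 1, where 19.4% to 20.9% of all promoters did not overlap. Members with a peak in every library numbered 6 to 8, with 8 without Parental replicate 3, beside 7260 of the 20176 protein-coding genes there. Limma called 0 promoters in each of these fits and in the alternatives.

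No pairing by replicate number was visible in the ranks. The correlations of the deviations of same-numbered libraries over 6966 promoters were -0.0180, -0.0286 and 0.0115. Those of differently numbered libraries were -0.0183 to 0.0400. The labels do not say whether the numbers pair libraries, and these correlations cannot settle it. With a replicate block, limma called 0 promoters, and the HSPA6 difference was 11.9 (exact permutation test within pairs, p = 1, where the smallest possible is 0.25). Depth is unknown, so an absent peak cannot be told apart from one that was too weak to be called.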
